A study of Mus musculus with 13 samples.

Results

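A set of 9 transcription factor genes of the naive pluripotency network was followed in mouse embryonic stem cells, in mRNA and in open chromatin. The members were the 9 rows of the gene count table, of 24470, whose symbol was Esrrb, Tfcp2l1, Klf2, Klf4, Klf5, Zfp42, Tbx3, Prdm14 or Nr0b1. They were chosen by name. The cells were of the E14 line, derived from the 129/Ola strain and grown in GMEM with serum and leukemia inhibitory factor (LIF), and every library came from this line under this culture. Low-input ATAC&mRNA-Seq lysed the cells with mild detergent, tagged open chromatin with Tn5, and then drew polyadenylated RNA from that lysate with oligo-dT beads. Experiment 1 used 10000 and 20000 cells, and experiment 2, on another day, used 5000, 10000 and 20000 cells, which gave 5 mRNA libraries and 5 ATAC libraries. Omni-ATAC, the benchmark, gave 1 library each from 5000, 10000 and 50000 cells, with no mRNA library and no experiment number in the titles. The labels name no treatment or genetic change in any group, so the comparisons are between experiments, cell numbers and protocols.

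The naive state is the state of the preimplantation epiblast, and LIF sustains it in culture. LIF acts through STAT3 on genes such as Klf4 and Tfcp2l1, and Wnt signalling acts on Esrrb by lifting the repression that Tcf7l1 places on it. These factors bind each other's genes together with Pou5f1, Sox2 and Nanog, and most of them are lost as the cells move towards the formative and primed states.

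The promoters below are shown because the members differed in whether open chromatin was listed at the start of the gene. Zfp42 and Klf2 had a peak at the start in every ATAC list, Nr0b1 in 2 of the 8 lists, and Esrrb in none at the start given by the count table. Each line holds the 250 bases before a RefSeq transcription start site (TSS) on GRCm38.p6, 5′ to 3′ on the gene's strand. Capitals mark matches on either strand to the motifs searched. The KLF element, which Krüppel-like factors bind, was searched as GGGNGTG. The GC box bound by Sp and related factors was searched as GGGCGG. The octamer that Pou5f1 binds was searched as ATGCAAAT. The element bound by STAT factors was searched as TTCNNNGAA. The TATA box found at the start of some genes was searched as TATAAA. The KLF element and the GC box can overlap by a base, as they do in Zfp42.

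Zfp42, chr8:43307010-43307259, minus strand: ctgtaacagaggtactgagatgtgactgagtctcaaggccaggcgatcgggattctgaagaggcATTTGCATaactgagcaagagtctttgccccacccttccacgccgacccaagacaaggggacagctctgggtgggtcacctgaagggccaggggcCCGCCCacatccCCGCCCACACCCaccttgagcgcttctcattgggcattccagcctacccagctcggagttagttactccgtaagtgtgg
Klf2, chr8:72318812-72319061, plus strand: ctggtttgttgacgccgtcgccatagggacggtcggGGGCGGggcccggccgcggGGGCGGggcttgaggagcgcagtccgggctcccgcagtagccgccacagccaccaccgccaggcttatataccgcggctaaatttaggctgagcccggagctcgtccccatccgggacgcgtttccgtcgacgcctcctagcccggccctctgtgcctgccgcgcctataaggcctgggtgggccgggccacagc
Esrrb, the first start, chr12:86360867-86361116, plus strand: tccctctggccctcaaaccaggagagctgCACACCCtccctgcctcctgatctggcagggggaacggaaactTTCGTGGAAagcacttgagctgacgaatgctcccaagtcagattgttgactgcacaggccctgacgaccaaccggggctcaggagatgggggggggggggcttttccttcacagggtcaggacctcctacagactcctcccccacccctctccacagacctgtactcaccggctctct
Esrrb, the second start, chr12:86421394-86421643, plus strand: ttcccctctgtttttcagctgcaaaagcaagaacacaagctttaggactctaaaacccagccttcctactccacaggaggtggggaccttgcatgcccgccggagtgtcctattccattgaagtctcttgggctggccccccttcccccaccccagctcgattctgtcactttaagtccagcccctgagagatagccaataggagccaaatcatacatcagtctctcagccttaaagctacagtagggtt
Nr0b1, chrX:86191525-86191774, plus strand: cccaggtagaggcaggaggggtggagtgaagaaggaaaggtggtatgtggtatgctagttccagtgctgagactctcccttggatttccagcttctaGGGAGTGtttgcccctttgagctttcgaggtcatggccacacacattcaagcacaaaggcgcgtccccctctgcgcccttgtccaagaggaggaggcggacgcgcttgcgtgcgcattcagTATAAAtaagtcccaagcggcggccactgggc

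The RefSeq promoter table held 6 of the 9 members, and Klf5, Tbx3 and Prdm14 were not among them. Among the printed promoters Klf2 had the highest CpG content, with 29 CpG dinucleotides and 71.2% GC, and it held 2 GC boxes. Zfp42 had 9 CpG and 58.4% GC, with the octamer at positions -186 to -179 from the start, read on the reverse strand. The octamer occurs in 1.6% of the 32851 promoters of the table and in 1.0% of the 6675 promoters whose gene averaged at least 10 CPM (counts scaled to a library total of 1000000). Nr0b1 had 11 CpG and a TATA box at positions -32 to -27, a motif held by 12.4% of all promoters and 5.78% of those with at least 10 CPM. Esrrb had 6 CpG before its first start and 3 CpG before its second. The first held a STAT element, found in 7.02% of all promoters and 5.78% of those with at least 10 CPM. The median promoter of genes with at least 10 CPM had 17 CpG and 60.0% GC. Of the promoters not printed, Klf4 had 32 CpG and 4 GC boxes, and Tfcp2l1 had 16 CpG, 2 KLF elements and a TATA box. The KLF element is in 26.1% of all promoters and the GC box in 32.7%, and in 32.0% and 60.7% of those with at least 10 CPM. AAGGTCA, the element of estrogen-related receptors, was searched too and matched in no member's 250 bases. It is in 4.08% of all promoters and 2.85% of those with at least 10 CPM.

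All 9 genes were expressed in every library. Total counts ran from 13727122 to 20426252 per mRNA library, and a count of 0 would have allowed up to 0.147 to 0.219 CPM (3 counts). CPM carry no correction for transcript length, so levels are compared between libraries and not between genes. The core factors Pou5f1, Sox2 and Nanog, which define embryonic stem cells, had means of 195, 159 and 227 CPM over the 5 libraries. Of the marker lists for other cell types, 3 differed in summed CPM without overlap between the experiments. The sums were 15.1 and 11.4 in experiment 1 against 2.44 to 2.74 in experiment 2 for 6 primitive endoderm genes. Dab2 was the largest part in experiment 1, at 8.23 and 4.35 CPM. Gata4 and Sox17 overlapped between the experiments, while Gata6, Sox7, Dab2 and Pdgfra were lower in experiment 2 without overlap. For 6 fibroblast genes the sums were 31.4 and 34.7 against 7.54 to 10.0, nearly all of it Thy1 (mean 17.3 CPM), with Col3a1 and Lum at 0 counts throughout. For 3 neural genes they were 4.23 and 5.62 against 11.1 to 14.4. Pax6 made up most of that difference, at 0.15 and 0 CPM in experiment 1 and 5.55, 6.96 and 3.52 CPM in experiment 2. Nes overlapped between the experiments, and Sox1 was not called (log2 0.57, edgeR adjusted p = 0.485). The sums overlapped between experiments for 5 trophoblast genes (30.1 to 34.1) and 4 mesendoderm genes (0.58 to 3.67). The members summed to 1210 and 1150 CPM in experiment 1 and to 1360 to 1510 CPM in experiment 2. Without Klf2 and Zfp42, both on chromosome 8, the other members summed to 463 and 430 CPM in experiment 1 and to 412, 450 and 533 CPM in experiment 2, so those sums overlapped. In bulk libraries fewer cells of a type and less RNA per cell cannot be told apart, and the part of these markers in the differences between experiments was not tested.

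**Figure D1:**
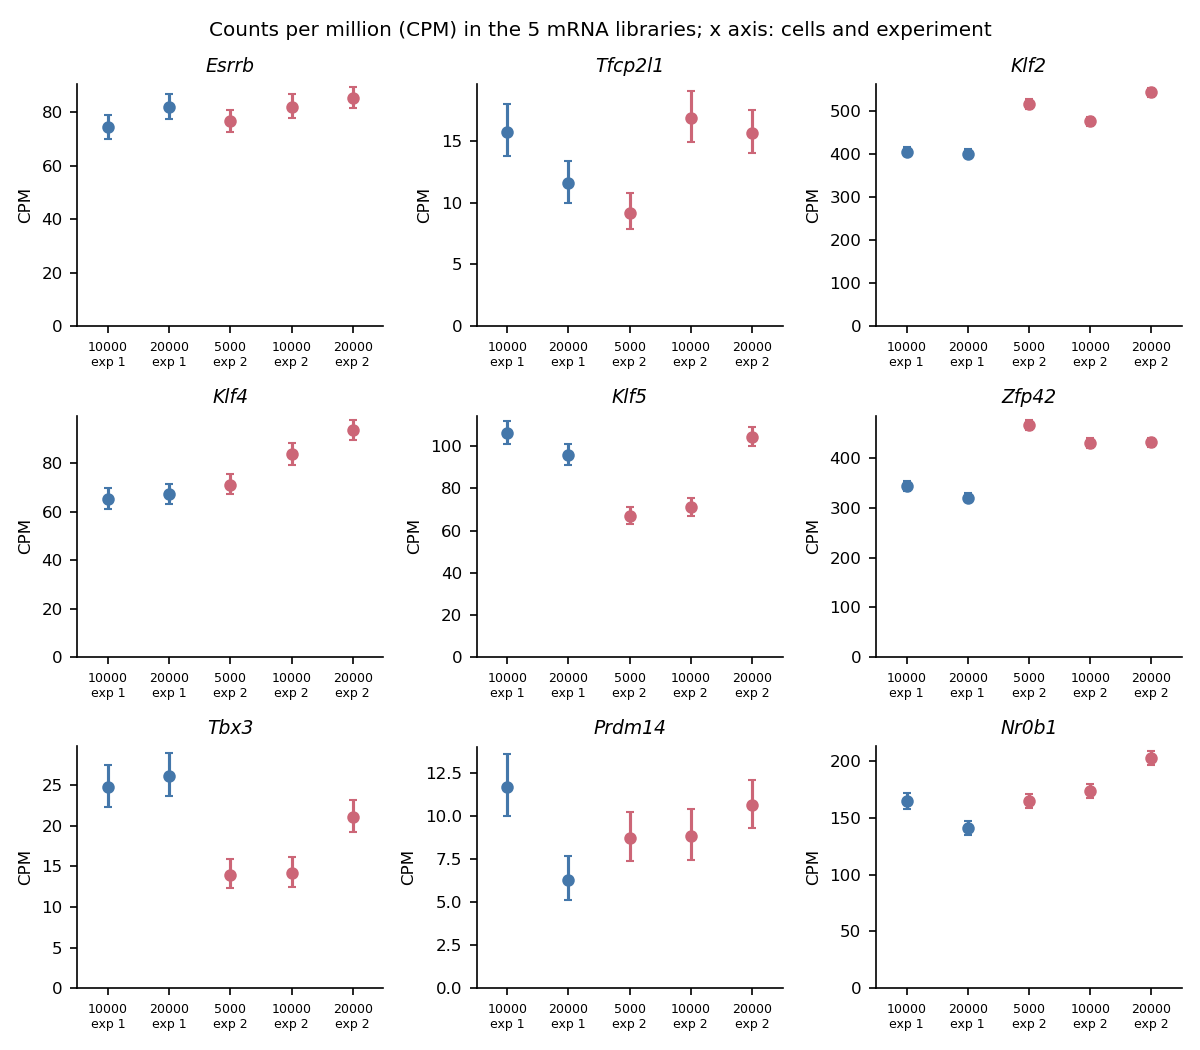
CPM of each member (y axis, from 0) in the 5 mRNA libraries (x axis, cells and experiment), blue for experiment 1 and red for experiment 2, with bars for the 95% Wilson interval of the counts. Zfp42 stands above 400 CPM in all 3 experiment 2 libraries and below it in both of experiment 1, and Tbx3 stands below its experiment 1 values in all 3.

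The experiments were compared with edgeR's quasi-likelihood test on the 4 libraries from 10000 and 20000 cells, 2 per experiment, with p-values adjusted over the 12523 genes tested (Benjamini-Hochberg) and a threshold of 0.05. The labels say that the experiments took place on different days, but not that libraries of a day came from separate cultures, so the p-values measure the spread between these libraries. The test called 12.5% of all genes, 5.75% higher in experiment 2 and 6.76% lower. It called 3 of the 9 members higher, Klf2, Klf4 and Zfp42, and none lower. The members' median log2 difference was 0.25, against 0.001 over all genes tested. For the 7 members not on chromosome 8 the median was 0.12, and 1 of the 7 was called higher. At an unadjusted p under 0.05 stood 5 members, Klf2, Klf4, Zfp42, Tbx3 and Nr0b1, and 25.7% of all genes. The calls rest on all 4 libraries: without the 10000 or the 20000 cell library of experiment 1 no member was called, and without either one of experiment 2 only 1 was (Klf2 without the 10000 cell library, Tbx3 without the 20000 cell library).

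The Krüppel-like factors Klf2, Klf4 and Klf5 are related zinc finger proteins that overlap in what they bind and can partly replace each other in self-renewal. Klf2 measured 405 and 402 CPM with 10000 and 20000 cells in experiment 1, and 517, 477 and 544 CPM with 5000, 10000 and 20000 cells in experiment 2. The experiments did not overlap, and Klf2 was 1.27-fold higher in experiment 2 (log2 0.34 ± 0.11 SE, edgeR adjusted p = 0.0497, or 0.056 with the cell number as a block). Klf4, a target of LIF and STAT3, measured 65.1 and 67.2 CPM in experiment 1 and 71.1, 83.7 and 93.4 CPM in experiment 2. It too did not overlap, at 1.34-fold higher (log2 0.42 ± 0.13 SE, edgeR adjusted p = 0.0381), but the call was lost with the 5000 cell library in the fit (log2 0.36, edgeR adjusted p = 0.0802). Klf5 measured 106 and 95.8 CPM in experiment 1 and 67.0, 70.9 and 104 CPM in experiment 2, where the 20000 cell library stood with experiment 1 and the others below it. Its log2 difference of -0.20 ± 0.15 SE did not pass (edgeR adjusted p = 0.43), and it was 0.05 without the 10000 cell library of experiment 2.

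Zfp42, also called Rex1, is a zinc finger gene used as a reporter of the naive state. It measured 344 and 320 CPM in experiment 1 and 466, 430 and 432 CPM in experiment 2. All experiment 2 libraries stood above both of experiment 1, and Zfp42 was 1.3-fold higher there (log2 0.38 ± 0.11 SE, edgeR adjusted p = 0.0282).

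Klf2 and Zfp42 both lie on chromosome 8, where most genes were higher in experiment 2. Over its 409 genes with at least 10 CPM the median log2 difference was 0.46, 91.9% of them were higher in experiment 2, and 30.3% of its 692 tested genes were called higher. Measured from that median, Klf2 was at -0.12 and Zfp42 at -0.08, and 66.7% and 61.3% of those genes had a larger difference than Klf2 and Zfp42. Klf4 lies on chromosome 4, whose median was -0.02 with 3.1% of tested genes called higher. It stood 0.44 above that median, and 11.1% of the chromosome's genes had a larger difference. Klf5 on chromosome 14, whose median was 0.20, stood at -0.40 from it, and 85.9% of that chromosome's genes had a larger difference. Nr0b1 stood 0.17 above the median of the X chromosome and Tbx3 at -0.47 from that of chromosome 5. What set chromosome 8 apart between the experiments was not tested.

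**Figure D2:**
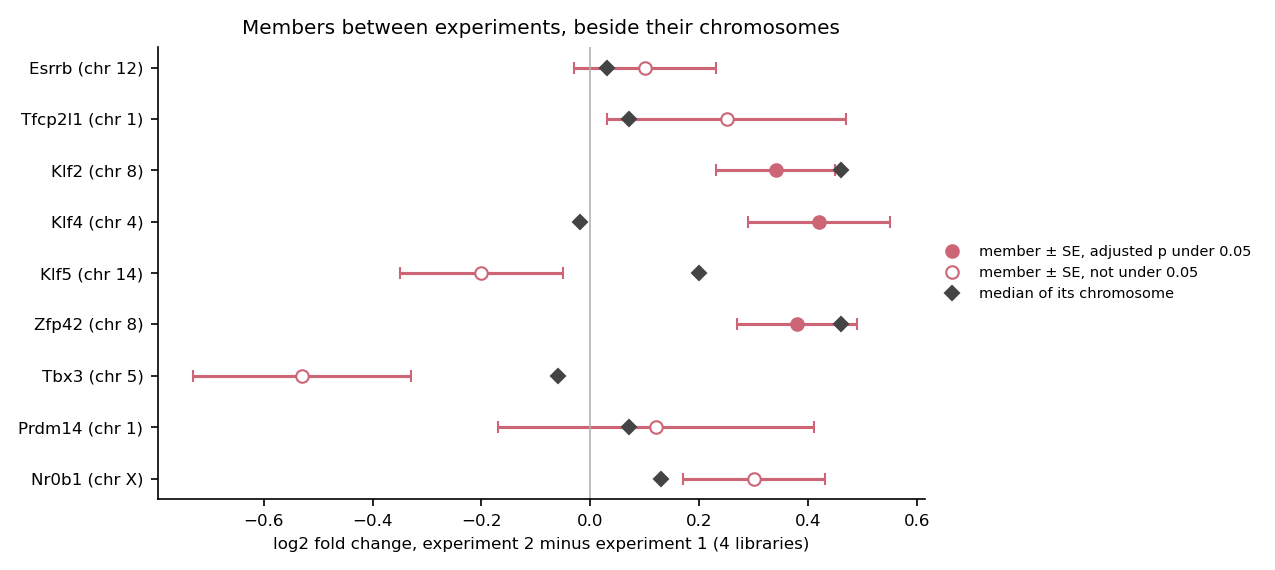
Log2 difference of each member, experiment 2 minus experiment 1, with its SE (circles, filled where the edgeR adjusted p was under 0.05), beside the median of the genes with at least 10 CPM on its chromosome (diamonds). Klf2 and Zfp42 lie just below the chromosome 8 median of 0.46, and Klf4 lies 0.44 above the median of chromosome 4.

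Esrrb and Nr0b1 are orphan nuclear receptors of the network, Esrrb an activator that can stand in for Nanog in self-renewal, and Nr0b1, also called Dax1, a corepressor that partners other nuclear receptors. Esrrb measured 74.5 and 82.2 CPM in experiment 1 and 76.7, 82.2 and 85.4 CPM in experiment 2. It varied the least of the 9, with a coefficient of variation of 5.59% over the 5 libraries, and the experiments overlapped (log2 0.10 ± 0.13 SE, edgeR adjusted p = 0.701). Nr0b1 measured 165 and 141 CPM in experiment 1 and 165, 173 and 203 CPM in experiment 2. The lowest experiment 2 library stood at 165.13 CPM and the highest of experiment 1 at 164.78 CPM, so the groups only just failed to overlap, and the log2 difference of 0.30 ± 0.13 SE did not pass (edgeR adjusted p = 0.131).

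Tfcp2l1, Tbx3 and Prdm14 were the members with the wider spread. Tfcp2l1, a grainyhead-family factor downstream of STAT3, measured 15.7 and 11.6 CPM in experiment 1 and 9.19, 16.8 and 15.7 CPM in experiment 2. Its lowest and highest libraries were both of experiment 2, and the log2 difference was 0.25 ± 0.22 SE (edgeR adjusted p = 0.526), or 0.06 with the 5000 cell library in the fit. Tbx3, a T-box factor that supports self-renewal, measured 24.8 and 26.2 CPM in experiment 1 and 14.0, 14.2 and 21.0 CPM in experiment 2. It was the only member with all experiment 2 libraries below both of experiment 1, as were 23.9% of all genes, while Klf2, Klf4, Zfp42 and Nr0b1 had all of them above, as had 17.7%. The test left Tbx3 short of the threshold at 0.694-fold (log2 -0.53 ± 0.20 SE, edgeR adjusted p = 0.0881). It passed with the cell number as a block (0.0465), with the 5000 cell library included (0.0471) and among genes of at least 10 CPM alone (0.0473), and did not with DESeq2 (0.175), no filter (0.113) or library size alone (0.106). Leaving out 1 library took the log2 difference from -0.83 to -0.27. Prdm14, which represses FGF signalling and DNA methyltransferases, measured 11.7 and 6.29 CPM in experiment 1 and 8.71, 8.83 and 10.6 CPM in experiment 2. Both extremes were of experiment 1, on 160 and 94 counts with 95% Wilson intervals of 9.98 to 13.6 and 5.14 to 7.7 CPM, which cover counting error only. Its log2 difference was 0.12 ± 0.29 SE (edgeR adjusted p = 0.848).

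Among the members the widest log2 range over the 5 libraries was that of Tbx3, 0.86. Of 6477 genes with at least 10 CPM, the profiles nearest to it by root mean square difference of centred log2(CPM + 1) were those of Gmppb (0.041), Mvp (0.044) and Pld3 (0.056). Gmppb measured 28.3 and 29.8 CPM in experiment 1 and 15.9, 17.0 and 25.8 CPM in experiment 2. It was thus low in the 5000 and 10000 cell libraries of experiment 2, as Tbx3 was.

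Cell number was compared over the same 4 libraries, 20000 minus 10000 cells. No member was called, and 0.0% of all genes were, by edgeR as by DESeq2, with 101 genes (0.807%) under an unadjusted p of 0.05 in edgeR and 60 in DESeq2 and no member among the former. With the experiment as a block edgeR called 4 genes, none of them a member. The members' median log2 difference was 0.08 and that of all genes 0.003. Esrrb had the narrowest interval, -0.27 to 0.43 on the log2 scale (2 SE either side), and Klf2 had -0.32 to 0.48. Prdm14, at -1.02 to 0.44, and Tbx3, at -0.37 to 0.90, had the widest, so the data bound these genes less closely. In counts simulated for this fit, which has no block, 0% of 2-fold changes and 75% of 4-fold changes were called. With the experiment as a block the SE fell from 0.32 to 0.20 for Tbx3 and from 0.37 to 0.28 for Prdm14. The members' edgeR adjusted p was 0.998 with the block and 0.999 without it.

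The library from 5000 cells had no replicate and is described without a test. It stood below both other libraries of experiment 2 for 7 members, between them for Klf2 and above them for Zfp42. Of all genes 50.4% stood below both. Tfcp2l1 was the furthest below, at 56.5% of the mean of the other libraries. The differences of log2(CPM + 1) were -0.76 for Tfcp2l1, -0.35 for Klf5, -0.31 for Klf4, -0.29 for Tbx3, 0.02 for Klf2 and 0.11 for Zfp42. The members' median was -0.18 and that of all genes -0.118.

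Genes around the network were read from the same edgeR fit of experiment 2 against experiment 1, by lists written with earlier results known, and each count stands beside the 5.75% of all genes called higher and the 6.76% called lower in that fit. Of the 4 core factors none was called. Sox2 stood at a log2 difference of 0.31 (edgeR adjusted p = 0.0982) and Nanog at -0.09. Of 10 other naive-state genes 3 were higher and none lower: Dppa3, an oocyte and naive-state chromatin factor, Fbxo15, a target of Pou5f1 and Sox2, and the homeobox gene Gbx2. Dppa3 measured 0.95 and 1.14 CPM in experiment 1 and 14.8, 7.42 and 11.5 CPM in experiment 2, a log2 difference of 3.17 (edgeR adjusted p = 5.85e-06). Fbxo15 measured 24.1 and 22.6 CPM in experiment 1 and 63.3, 91.5 and 75.8 CPM in experiment 2, a log2 difference of 1.84 (edgeR adjusted p = 1.36e-08). Both differences were larger than that of any member, and Gbx2 rose by 0.51 on the log2 scale (edgeR adjusted p = 0.03). Dppa5a, with a mean of 1570 CPM, was at 0.02.

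The 3 remaining lists had 1 gene called each, against 12.5% of all genes. Of 7 genes of the LIF and STAT3 pathway it was the feedback inhibitor Socs3, higher by 0.56 on the log2 scale (edgeR adjusted p = 0.0445). The receptor Lifr, with a mean of 44.9 CPM, was at 0.18. Of 12 Wnt and FGF genes 11 were tested and 1 was called, the receptor Fgfr1, higher by 0.67 (edgeR adjusted p = 0.0174) and also on chromosome 8. Ctnnb1, which encodes beta-catenin, was at 0.10 with a mean of 182 CPM. Of 8 formative and primed genes 5 were tested and 1 was called, Zic2, higher by 2.51 (edgeR adjusted p = 0.004). It measured 0.44 and 1.07 CPM in experiment 1 and 0.89, 4.0 and 4.75 CPM in experiment 2, where the 5000 cell library, outside the fit, lay within the values of experiment 1. Dnmt3a was at 0.18, Otx2 at -0.80 (edgeR adjusted p = 0.618) and the median of the 5 at -0.01. Fgf5, Lef1 and Sox3 were too low to be tested, with 3 to 9 counts per library in experiment 1 and 0 or 1 in experiment 2. Genes called among the markers were Utf1 of embryonic stem cells (-0.57, edgeR adjusted p = 0.00145), Gata6 and Dab2 of primitive endoderm (-3.81 and -3.06, edgeR adjusted p = 0.0131 and 2.64e-04), Thy1 (-2.19, edgeR adjusted p = 6.75e-08) and Pax6 (6.08, edgeR adjusted p = 1.49e-05). Of the markers, 5 of 5 embryonic stem cell, 4 of 6 primitive endoderm and 3 of 5 trophoblast genes were tested. So were 2 of 6 fibroblast, 1 of 4 mesendoderm and 3 of 3 neural genes. These calls too stand beside the 12.5% of all genes. In 20000 against 10000 cells no gene of any list was called.

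Open chromatin was read from 8 deposited peak lists, 5 of the low-input protocol and 3 of Omni-ATAC, as intervals on mm10. The lists hold no height or score, the read depth behind them is unknown, and they held between 9097 and 95457 peaks. The shortest intervals were 9 bp and made up 24.4% to 59.2% of a list. A peak that touched the 1000 bp either side of the table's TSS was counted as a TSS peak.

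In the order low-input 10000 and 20000 cells of experiment 1, then 5000, 10000 and 20000 cells of experiment 2, the members with a TSS peak were 5, 5, 4, 6 and 8 of 9. In the same order the share over the 6485 genes with at least 10 CPM was 61.7%, 71.2%, 62.7%, 76.9% and 88.8%. In Omni-ATAC with 5000, 10000 and 50000 cells they were 5, 5 and 8 of 9, against 38.8%, 75.9% and 95.7%. No difference between the members and comparably expressed genes was tested, and with 9 members each share moves in steps of a whole gene.

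**Figure D3:**
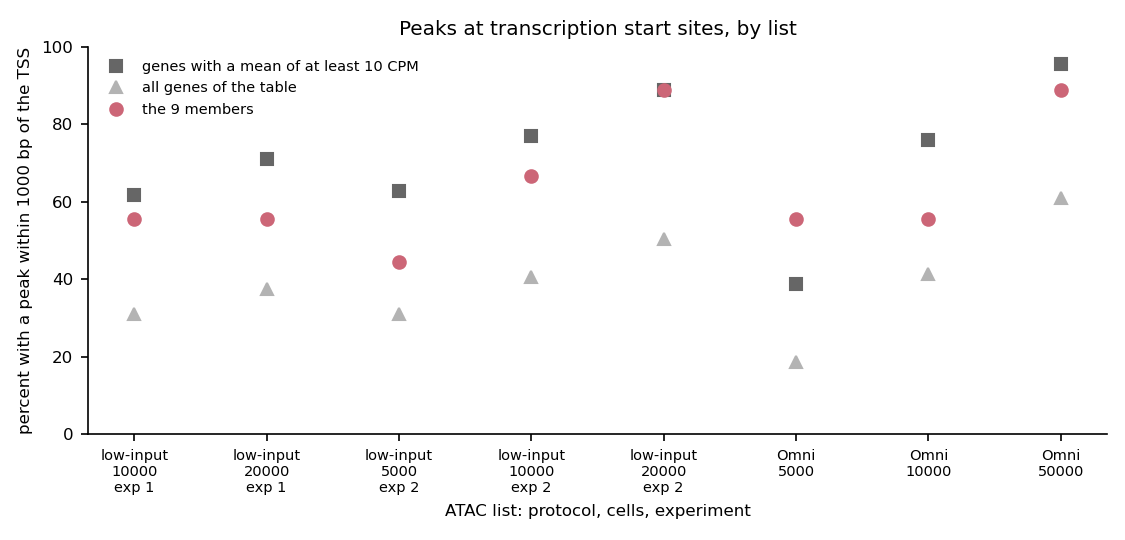
Percent of genes with a peak within 1000 bp of the TSS (y axis) in each of the 8 ATAC lists (x axis), for the 9 members (circles), genes with at least 10 CPM (squares) and all genes of the table (triangles). The members lie between 4 and 8 of 9, above the triangles in every list and below the squares in 6 of the 8, and no difference was tested.

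The members fell into distinct patterns at their starts. Klf2, Klf5, Zfp42 and Tbx3 had a TSS peak in all 8 lists, as did 32.2% of the genes with at least 10 CPM. At Klf2 the peak was 190 bp wide in both low-input lists of experiment 1, 280 to 503 bp in the 3 of experiment 2, and 14, 9 and 282 bp in Omni-ATAC with 5000, 10000 and 50000 cells. Of the chromosome 8 genes with at least 10 CPM, 62.6% and 70.9% had a TSS peak in the low-input lists of experiment 1. In those of experiment 2 the shares were 71.9%, 84.8% and 92.9%. Peak widths over the chromosome were not compared. At Zfp42 the peak spanned the octamer of the printed promoter in 3 lists, the low-input list from 20000 cells of experiment 2 and Omni-ATAC with 50000 cells (positions -237 to 89) and Omni-ATAC with 10000 cells (-221 to -4). It began at -184, within the octamer, in 3 other low-input lists, and downstream of it, at -123 and -22, in the low-input list from 10000 cells of experiment 1 and in Omni-ATAC with 5000 cells. Klf4 had a TSS peak in 6 lists, which in the low-input lists lay no nearer than position -251. Tfcp2l1 and Prdm14 had it in 3 lists each, at most 143 and 190 bp wide.

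Nr0b1 and Esrrb stood at the other end, although both were expressed in every library at 141 to 203 and 74.5 to 85.4 CPM. Nr0b1 had a TSS peak in the low-input list from 20000 cells of experiment 2, 9 bp wide, and in the Omni-ATAC list from 50000 cells, 267 bp wide and over the TATA box of the printed promoter. It is on the X chromosome, where 48.8%, 51.2%, 48.8%, 65.1% and 78.5% of the 172 genes with at least 10 CPM had a TSS peak in the low-input lists in the order above. In the Omni-ATAC lists these shares were 23.8%, 65.7% and 95.3%. Esrrb had none in any list at the table's start, as did 4.02% of genes with at least 10 CPM. RefSeq gives Esrrb a second start 60527 bp further on, and there the Omni-ATAC lists from 10000 and 50000 cells held peaks of 9 and 145 bp and the low-input lists none.

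Peaks were then counted over each gene and 50000 bp either side. The low-input lists held 31, 52, 32, 58 and 88 peaks in the 9 windows in the order above, and Omni-ATAC held 21, 57 and 151. Per 1000 peaks of the list these were 1.64, 1.92, 1.72, 1.94 and 1.78 for the low-input lists and 2.31, 1.83 and 1.58 for Omni-ATAC. The highest share was that of the shortest list and the lowest that of the longest. Of the 490 peaks in all, 2 lay within 1000 bp of the TSS of another gene, both in the Tbx3 window.

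**Figure D4:**
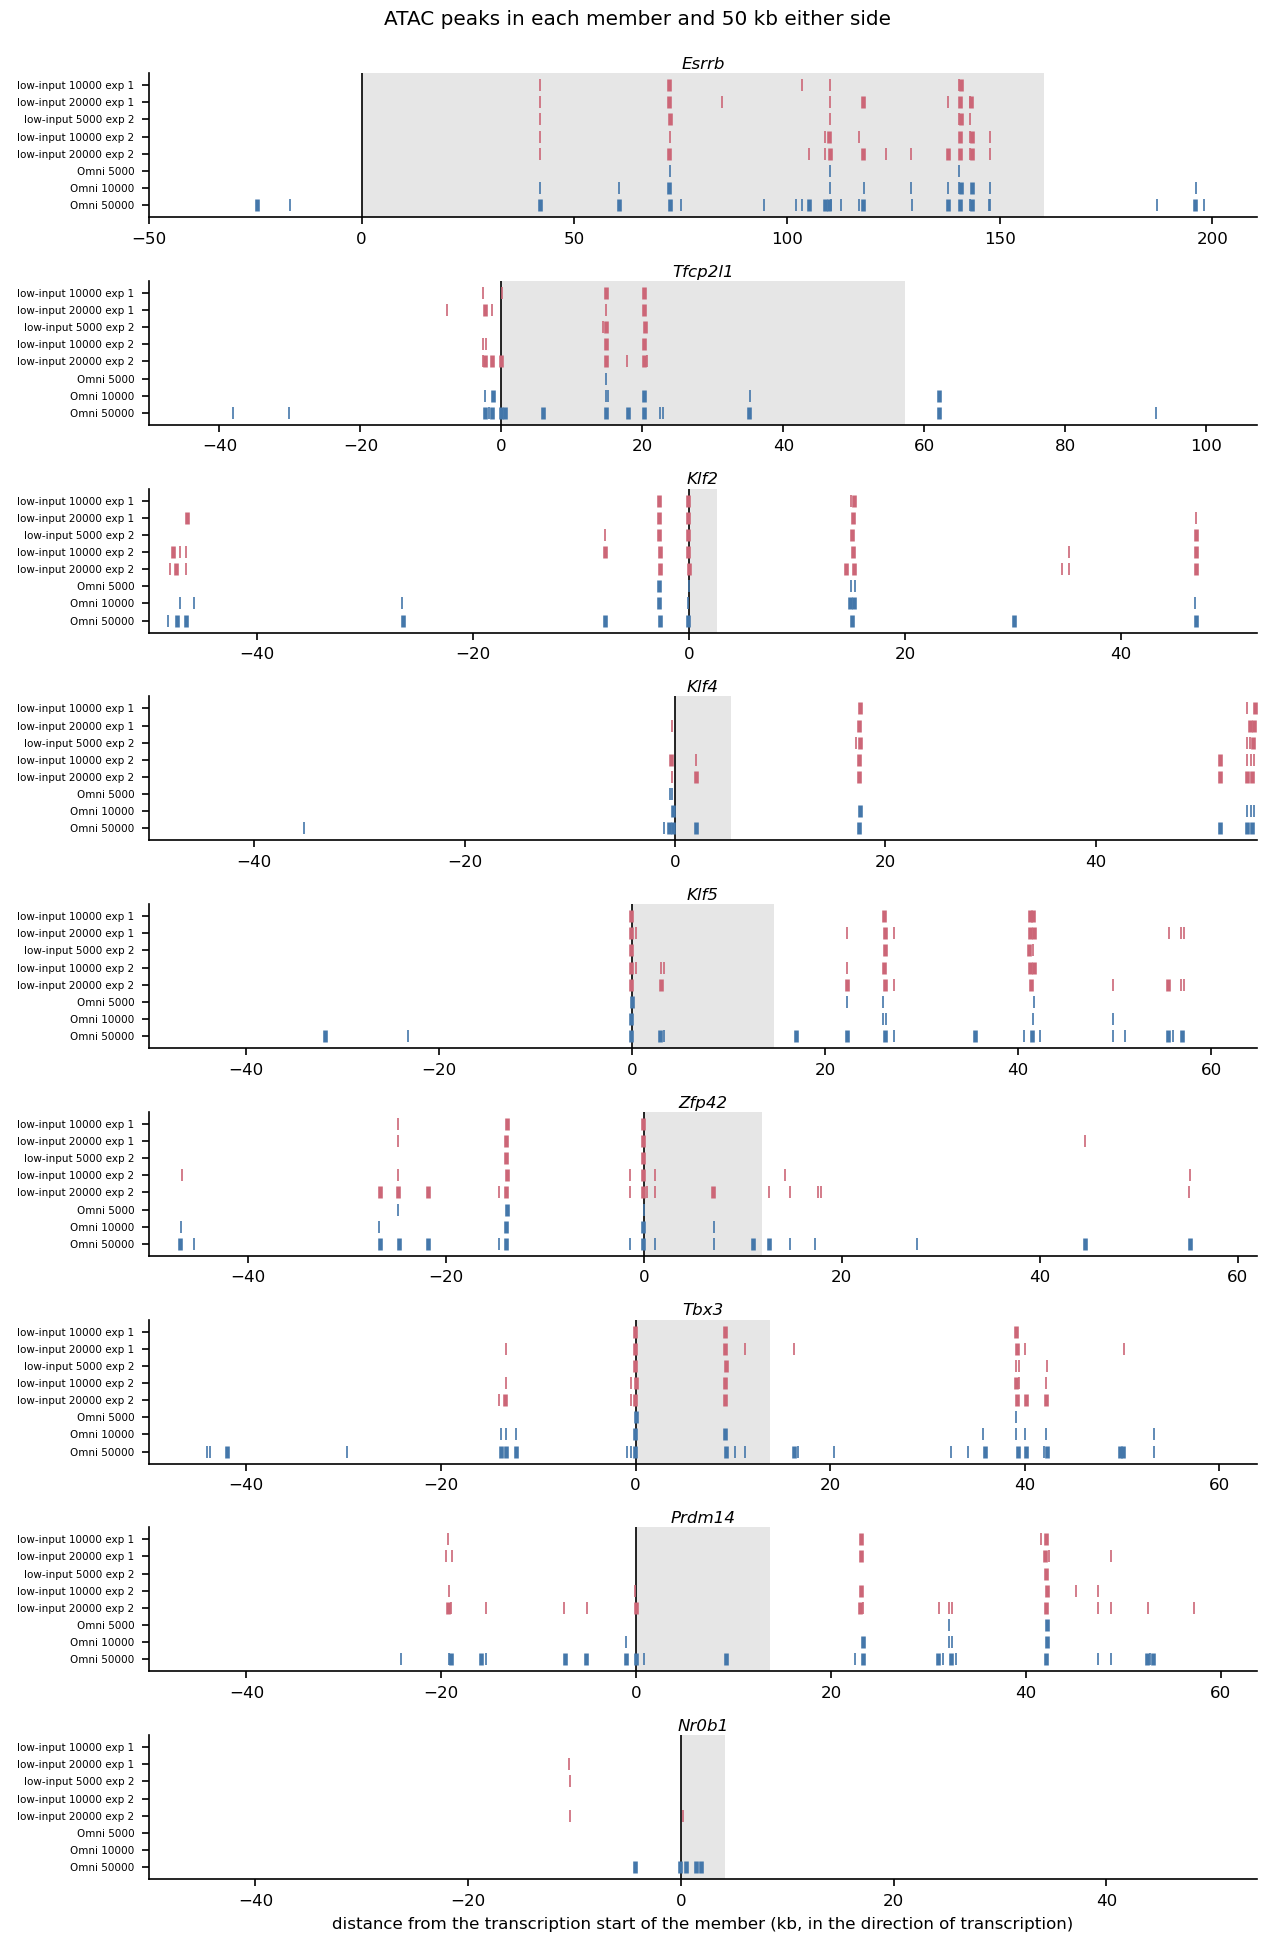
Peaks of the 8 lists (rows, red for low-input and blue for Omni-ATAC) around each member, by distance in kb from the table's TSS in the direction of transcription, with the gene body in grey, thick marks for peaks of at least 50 bp and thin marks for shorter ones. Esrrb has most of its peaks within the gene body and none at 0, and Nr0b1 has few marks in any row.

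Windows differed from 5 to 26 peaks in the Omni-ATAC list from 50000 cells, where the median gene with at least 10 CPM had 11. Esrrb and Tbx3 had 26 each and Prdm14 had 23, and 2.79%, 2.79% and 5.4% of those genes had at least as many. The Esrrb window is the longest, at 260.5 kb, and held 9.98 peaks per 100 kb, close to the median of 8.85 over those genes, while the Tbx3 window of 113.9 kb held 22.8. Nr0b1 had 5, and 93.3% of those genes had at least as many. In the low-input list from 20000 cells of experiment 2 Prdm14 had 16, Zfp42 15, Esrrb 13 and Nr0b1 2, where the median was 7. By length Esrrb held 4.99 peaks per 100 kb there, against a median of 5.73. Nr0b1 had no peak at all in 4 lists, the low-input lists from 10000 cells of both experiments and the Omni-ATAC lists from 5000 and 10000 cells. A 9 bp interval at about -10.5 kb from its start was in each of the 3 other low-input lists.

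Peaks of different lists were joined into regions where they lay within 200 bp of each other, which gave 164 regions around the members. Of these 15 were in all 8 lists, 9.15% against 5.16% of the 101577 regions of the genome, and 71 were in 1 list only, 43.3% against 50.1%. Of those 71, 59 were in the Omni-ATAC list from 50000 cells. The 15 were 4 at a TSS, 4 in a gene body, 2 upstream and 5 downstream. With peaks of at least 50 bp alone, an alternative chosen after the data were seen, 5 of 90 regions were in all 8 lists, 5.56% against 2.4% over the genome. In both settings the regions of the genome were not limited to windows around genes with at least 10 CPM. The shares are thus not matched for place, and no difference was tested.

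Esrrb had 3 of the 15, all within the gene, at chr12:86433371-86433724, chr12:86470812-86471487 and chr12:86501603-86502170, which are 72.4, 110.0 and 140.8 kb after the table's start. Klf2 and Klf5 had 3 each as well, in windows of 102.6 and 114.7 kb against 260.5 kb for Esrrb. Klf2 had them at -2.7 kb (chr8:72316133-72316599), at the start (chr8:72318796-72319298) and 15.1 kb after it (chr8:72333582-72334685). Klf5 had them at the start (chr14:99298355-99298737) and 26.2 and 41.4 kb after it (chr14:99324628-99325175 and chr14:99339696-99340479), both beyond the end of the gene.

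Zfp42 had the start (chr8:43306920-43307246) and a region at -13.9 kb (chr8:43320540-43321323). Tbx3 had the start (chr5:119670606-119671100) and a region 39.2 kb after it (chr5:119709766-119710425). Tfcp2l1 and Prdm14, with few TSS peaks, had 1 each: 14.8 kb into the gene for Tfcp2l1 (chr1:118642430-118643144) and 42.0 kb downstream for Prdm14 (chr1:13084713-13085607). Outside the 1000 bp counted as TSS, Tfcp2l1 also had a region at -2.4 kb (chr1:118625391-118625788) in 4 low-input and 2 Omni-ATAC lists. Another, 20.3 kb into the gene, was in 7 lists. Klf4 had none in all 8 lists. Its regions 17.5 and 54.9 kb downstream (chr4:55514771-55515253 and chr4:55477321-55477810) were in all 5 low-input lists and in 2 of the 3 Omni-ATAC lists, and were missing from the one of 5000 cells, the shortest. Nr0b1 had no region in more than 3 lists.

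The protocols were compared at equal cell number by the member regions they shared. The titles of the Omni-ATAC libraries give no experiment number. With 5000 cells the low-input list held 18637 peaks and the Omni-ATAC list 9097. Protocol can therefore not be told apart from experiment or list length here. With 5000 cells the low-input list held 26 member regions and Omni-ATAC 19, of which 15 were shared, 57.7% of the first and 78.9% of the second, against 37.0% and 73.3% genome-wide. With 10000 cells the shared regions were 85.2% and 45.1% of the low-input and Omni-ATAC lists in experiment 1 (genome-wide 76.1% and 46.5%) and 59.6% and 60.8% in experiment 2 (genome-wide 66.3% and 63.1%). Between experiments the low-input lists from 10000 cells shared 25 regions, 92.6% of the 27 of experiment 1 and 48.1% of the 52 of experiment 2. Those from 20000 cells shared 41 of 48 and 82, or 85.4% and 50.0%. Over the genome these shares were 81.3% and 52.2% with 10000 cells and 88.5% and 48.2% with 20000 cells. The Omni-ATAC list from 50000 cells, with 148 member regions, held at least 87.8% of the member regions of each low-input list, against at least 90.5% of all regions of each.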

How the data were processed

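The deposited mRNA table held whole-number counts of 24470 genes in 5 libraries, and its coordinates are on mm10 per the labels. Peaks were deposited by the authors as intervals on mm10, 1 list per ATAC library and a unified list, with no height, score or p-value. The submitters' processing notes name cutadapt, Bowtie2 2.1.0, SAMtools 1.3.1, Picard, bedtools 2.24.0, MACS2 2.1.1, STAR 2.5, featureCounts and Subread 1.5.0-p1, with no roles. The annotation, the peak threshold, the use of strand, whether duplicate reads were removed and the handling of multimapping reads are not given in the sources used here, so Pou5f1 and Dppa5a, which have near-identical copies, and overlapping genes are uncertain.

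Groups and experiment numbers came from the sample titles. CPM were computed from the counts, with 95% Wilson intervals that take reads as independent molecules, although no molecular identifiers are named, and so cover counting error only. Tests used edgeR 4.0.16 in R 4.3.3 (TMM, filterByExpr, glmQLFit, glmQLFTest, Benjamini-Hochberg, threshold 0.05) on the 4 libraries from 10000 and 20000 cells, without a block. The lowest chi-square per gene between any pair of libraries was 10.1, above sampling noise. Experiment numbers mark a shared day per the labels and pair libraries across cell numbers: the experiment differences at 10000 and 20000 cells correlated with r = 0.562 across 11512 genes, which are not independent replicates. In simulated counts the changes were placed in a sample of genes with at least 10 CPM. All genes varied by the common dispersion of the fit. The comparison of experiments called 66% of 2-fold changes (12480 genes tested) and 100% of 4-fold changes (12469 tested). That of cell numbers called 0% (12509 tested) and 75% (12535 tested). The common dispersion gave a biological coefficient of variation of 17.1% for experiments and 32% for cell numbers. Among genes with at least 10 CPM alone it was 11.3% and 21.3%, so the shares do not describe such genes at their own spread.

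Gene IDs of all 9 members and 24467 genes matched a RefSeq table of GRCm38.p6, with equal start coordinates for 67.0% of the matched genes and 7 members. The RefSeq start lay 22 bp upstream of the table's for Tfcp2l1 and 328 bp for Tbx3, which left their lists with a TSS peak at 3 and 8. The alternatives were DESeq2 1.42.0, RLE factors, unscaled library size, no filter, at least 10 CPM, an absolute log2 difference of at least 1, blocks, the 5000 cell library added, the chromosome median taken off, other pseudocounts, distances, overlaps and flanks, and each replicate left out. Joining peaks only where they overlap, joining peaks of at least 50 bp and the second Esrrb start were added after the data were seen. Named genes are all members, those of each other list with an adjusted p under 0.05 or the highest mean CPM (a rule for naming, not a ranking of levels), and the 3 nearest profiles to the member of widest range. Any other gene was picked with its values in view. The members and lists were chosen with earlier results of these data known. Scripts ran in Python 3.11.15 with pandas 2.3.3, numpy 2.4.6, matplotlib 3.10.9 and scipy 1.17.1.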

Additional observations from a re-analysis of the deposited data

Results flagged for a closer look

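Several members differed in opposite directions in the 2 experiments or at the 2 cell numbers, 1 library against 1, and none of these differences was tested. On the log2(CPM + 1) scale Prdm14 differed between experiments (2 minus 1) by -0.36 at 10000 cells and by 0.67 at 20000 cells, and from 10000 to 20000 cells it differed by -0.80 in experiment 1 and by 0.24 in experiment 2. The 2 differences are 1.04 apart, on the lowest counts of any member. Klf5 differed between experiments by -0.57 at 10000 cells and by 0.12 at 20000 cells, and between cell numbers by -0.15 in experiment 1 and 0.55 in experiment 2, which are 0.69 apart. Between cell numbers only, Nr0b1 differed by -0.22 and 0.22 in experiments 1 and 2 (0.45 apart), Klf2 by -0.01 and 0.19 (0.2 apart) and Zfp42 by -0.10 and 0.01 (0.11 apart). For Tbx3 the difference between experiments kept its sign, at -0.76 with 10000 cells and -0.30 with 20000 cells.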

How the results depend on the processing

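In experiment 2 against experiment 1 the count of 1567 genes and 3 members called went to 612 and 0 when an absolute log2 difference of at least 1 was required, and to 803 to 1817 and 0 to 1 when each replicate was left out. Each of those fits leaves 1 library in a group, which is assumed to vary like the others. Other settings kept the gene count within 1.5 times. Klf2 lost its call with library size alone (adjusted p = 0.0593, edgeR) and with the cell number as a block (0.056), and Klf4 with the 5000 cell library added (0.0802). Apart from the limit on the log2 difference, Zfp42 kept its call in every setting with all 4 libraries, at 0.00508 to 0.0337, and lost it in each of the 4 fits with a replicate left out (0.0628 to 0.171). With the chromosome median taken off, Klf2 was at -0.12, Zfp42 at -0.08, Klf5 at -0.40 and Nr0b1 at 0.17. Without 1 replicate the log2 difference of Klf5 ran from -0.50 to 0.05, that of Prdm14 from -0.24 to 0.63, that of Tfcp2l1 from 0.06 to 0.49 and that of Tbx3 from -0.83 to -0.27 (edgeR adjusted p = 0.0426 to 0.614). In 20000 against 10000 cells 2 genes were called with no filter and 4 with the experiment as a replicate block, none of them a member, and 0 otherwise. The block moved Nr0b1 from 0.00 to -0.02, and at least 10 CPM moved it to -0.01. Without 1 replicate the differences ran from -0.14 to 0.29 for Klf2, -0.16 to 0.32 for Klf4, -0.08 to 0.48 for Klf5, -0.28 to 0.15 for Zfp42, -0.07 to 0.72 for Tbx3, -0.71 to 0.05 for Prdm14 and -0.27 to 0.25 for Nr0b1. With peaks of at least 50 bp the 490 peaks around the members became 243 and the 15 regions in all 8 lists became 5, by construction fewer, while the 46 pairs of a member and a list with a TSS peak became 37. At 2500 bp there were 50 such pairs and with the second Esrrb start 48. The depth behind the peak lists is unknown, so a peak missing from a list shows only that none was listed.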

Other observations

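Among genes with at least 10 CPM, taking the promoter listed first for each gene, the share with a peak over the 250 bases differed by the number of CpG dinucleotides. In the Omni-ATAC list from 50000 cells 31.7% of the 303 promoters with 0 to 4 CpG had a peak, 79.9% of the 662 with 5 to 9, 94.5% of the 2316 with 10 to 19 and 96.9% of the 2005 with 20 or more. In the low-input list from 5000 cells these shares were 11.6%, 32.5%, 50.9% and 55.3%. Of the members' promoters, Klf2, with 29 CpG, and Zfp42, with 9, had a peak over them in all 8 lists, Klf4, with 32, and Tfcp2l1, with 16, in 2 each, and Nr0b1, with 11, in 1. Esrrb had none at the first start, with 6 CpG, and 2 at the second, with 3. These are descriptions without a test.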
